A study of Mus musculus with 6 samples.

Results

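The members described here are the nuclear genes of cytochrome c oxidase (complex IV): its subunits, their tissue isoforms and the factors that assemble it. They were chosen by symbol, as the protein-coding genes whose name starts with Cox and a digit, together with Sco1, Sco2, Surf1, Coa3, Coa5, Coa6, Coa7, Pet100, Cmc1, Cmc2, Taco1 and Lrpprc. Of 39 such genes in the annotation, 37 were among the 15176 genes of the table and all 37 passed the filter on low values; Cox7b2 and Cox8c were not analysed here. The tissue was the inguinal fat pad (iWAT, subcutaneous white fat), with RNA sequenced in 2 libraries of Steap4AKO mice (replicates 2 and 3) and 4 libraries of Steap4f/f mice (replicates 1, 2, 5 and 6). Steap4AKO mice lack Steap4 in adipocytes, Steap4f/f mice carry the floxed allele and served as controls, and both groups were fed a high-fat diet (HFD). The Cre line that deletes the gene, and the sex and age of the animals, are not given in the sources used here. Whether each library is a separate mouse is not stated in the labels, so p-values measure only how far these samples spread, which may be technical.

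Complex IV is the last enzyme of the respiratory chain and passes electrons from cytochrome c to oxygen. Its catalytic core is encoded by mitochondrial DNA and holds heme A and copper, which dedicated proteins make, carry and insert, while the nuclear genes encode the small subunits around that core. Several of these subunits exist in a form used in most tissues and another used mainly in heart, skeletal muscle or brown fat, and white fat that gains thermogenic adipocytes gains isoforms of the second kind. Steap4 is a membrane metalloreductase for iron and copper, and the study asked how its loss bears on mitochondria in the fat of HFD-fed mice.

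The deposited values are DESeq2-normalized gene counts made by the authors, and the depth behind them was estimated at 18100000 to 23100000 reads in Steap4AKO and 15900000 to 19400000 reads in Steap4f/f. Steap4 itself had normalized values of 8313 and 8014 in Steap4AKO, against 17018, 9417, 8310 and 8851 in Steap4f/f. Its log2 difference of -0.35 (SE 0.29) missed the threshold (limma, adjusted p = 0.544), so this transcript's level in the whole tissue gave no check of the genotype labels. Skeletal muscle markers, all 16 of which were in the table, summed to 2563 and 20645 in Steap4AKO, against 159201, 671258, 516181 and 860008 in Steap4f/f, and for 14 of the 16 both Steap4AKO libraries lay below all Steap4f/f libraries. Steap4AKO replicate 2 stood apart, and its depot markers went against its label of inguinal fat. The subcutaneous depot markers summed to 76.1 there, against 1315 in Steap4AKO replicate 3 and 2042 to 2377 in Steap4f/f, and the 2 epididymis markers in the table summed to 8274 there and to at most 3.34 in the other libraries. Mesothelial and visceral markers summed to 2016 in that library, against 22.4 in Steap4AKO replicate 3 and 57.4 to 407 in Steap4f/f. Its macrophage markers summed to 12455, against 3380 in Steap4AKO replicate 3 and 3354 to 3955 in Steap4f/f, and its T and B cell markers to 269, against 43.1 in Steap4AKO replicate 3 and 32.4 to 87.9 in Steap4f/f. The part of these differences in the members' results was not tested, and values without this library are given beside the calls. Adipocyte markers, which do not tell fat depots apart, summed to 299295 and 433867 in Steap4AKO and to 428124 to 489816 in Steap4f/f. In whole tissue, fewer cells of a type and less RNA per cell cannot be told apart.

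On the log2 scale, the Steap4AKO mean was below the Steap4f/f mean for 35 of the 37 members and above it for 2, Cox4i2 and, by 0.03, Coa7. Both Steap4AKO libraries lay below all 4 Steap4f/f libraries for 21 of the 37, where 14.4% of all genes tested did, and they lay above all 4 for 0 of the 37, where 14.1% of all genes did. The share below depended on transcript length: it was 35.9% of other protein-coding genes of up to 600 bases and 34.5% of those from 600 to 1000 bases, the lengths of 7 and 11 members. Without genes named for mitochondrial complexes, mitochondrial import and ribosomes, these shares were 25.6% and 30.1%. At an adjusted p under 0.05 over 15006 genes (limma on the log2 of the value + 1), 3 members fell, Cox5a, Cox7b and Cox6a2, where 0.433% of all genes were called lower, and 0 rose. At an unadjusted p under 0.05 (limma), 17 members were lower, where 9.66% of all genes were, and 0 were higher, where 8.45% of all genes were. The median log2 difference, Steap4AKO minus Steap4f/f, was -0.37 over all members and 0.02 over all genes tested. By class it was -0.78 for the 10 ubiquitous subunits, -2.84 for the 3 muscle, heart and brown-fat isoforms and -0.25 for the 21 assembly and mRNA factors.

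**Figure D1:**
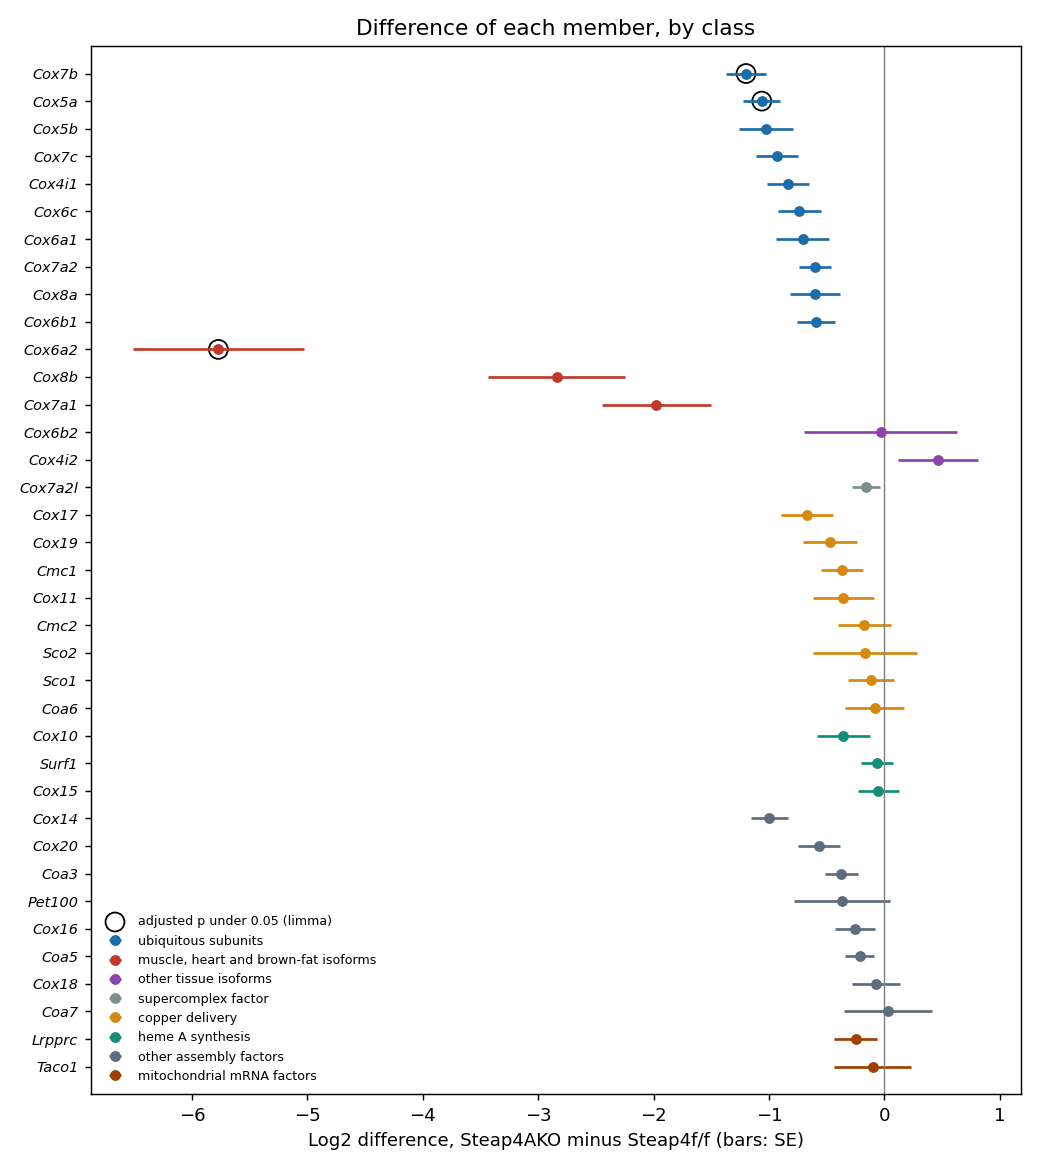
The log2 difference, Steap4AKO minus Steap4f/f, is plotted on the horizontal axis for each member, grouped and coloured by class, with bars for the SE and a ring around each gene with an adjusted p under 0.05 (limma). Ubiquitous subunits lie between -1.20 and -0.59, while most assembly factors lie closer to 0.

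The 10 ubiquitous subunits form the standard nuclear shell of the enzyme. For all 10 the pair of Steap4AKO libraries lay below the 4 Steap4f/f libraries, where 14.4% of all genes tested did. Cox7b, a small membrane subunit encoded on the X chromosome (106015700 to 106022450, GRCm38), had 767.5 and 1020 normalized counts in Steap4AKO, against 2290, 1892, 2201 and 1790 in Steap4f/f. Cox5a, a subunit on the matrix side encoded on chromosome 9 (57521274 to 57532426), had 1030 and 1305 in Steap4AKO, against 2112, 2358, 2658 and 2603 in Steap4f/f. The groups did not overlap for Cox7b or for Cox5a. Exons of Cox5a share 269 bases with Gm26631 on the other strand, and without knowledge of strand their reads cannot be told apart. Cox7b fell 2.29-fold, a log2 difference of -1.20 (SE 0.17, limma, adjusted p = 0.0466), and Cox5a fell 2.08-fold, a log2 difference of -1.06 (SE 0.16, limma, adjusted p = 0.0466).

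Both calls held without Steap4f/f replicate 1, at adjusted p-values of 0.0339 for Cox7b and 0.0233 for Cox5a (limma). They were lost without Steap4AKO replicate 2 or Steap4f/f replicate 2, 5 or 6. Without Steap4AKO replicate 3 the log2 differences were -1.40 for Cox7b and -1.23 for Cox5a. That fit leaves only replicate 2 in Steap4AKO, whose depot markers went against its label. Without Steap4AKO replicate 2, the library that stood apart, the log2 difference was -0.99 for Cox7b (limma, adjusted p = 0.212) and -0.89 for Cox5a (limma, adjusted p = 0.221). Leaving out Steap4f/f replicate 2, 5 or 6 ended both calls too, at adjusted p-values of 0.177, 0.154 and 0.123 (limma), with log2 differences of -1.26 to -1.16 for Cox7b and -1.08 to -1.02 for Cox5a.

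The other 8 ubiquitous subunits did not pass the test, with adjusted p-values of 0.0674 to 0.216 (limma). Cox4i1, the largest nuclear subunit, had 5444 and 7385 in Steap4AKO, against 13268, 10698, 11000 and 10399 in Steap4f/f, a log2 difference of -0.83 (SE 0.18, limma, adjusted p = 0.0875). Cox6a1, which lies toward the intermembrane space, had 4273 and 6322 in Steap4AKO, against 10961, 7022, 8620 and 7862 in Steap4f/f. Cox8a, a single-span membrane subunit, had 4163 and 6221 in Steap4AKO, against 9493, 7178, 8025 and 6465 in Steap4f/f. For Cox8a the gap between the groups was narrow, with the higher Steap4AKO library at 6221 and the lowest Steap4f/f library at 6465. Cox7a2, the common partner of the muscle form Cox7a1, had 1103 and 1324 in Steap4AKO, against 1972, 1661, 1872 and 1838 in Steap4f/f. Cox6b1, which faces cytochrome c, had 1944 and 2499 in Steap4AKO, against 3844, 2859, 3336 and 3318 in Steap4f/f. These 2 genes had log2 differences of -0.60 and -0.59, among the smallest of the class. Cox5b, a zinc-binding subunit on the matrix side, Cox6c and Cox7c had log2 differences of -1.03, -0.74 and -0.93.

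**Figure D2:**
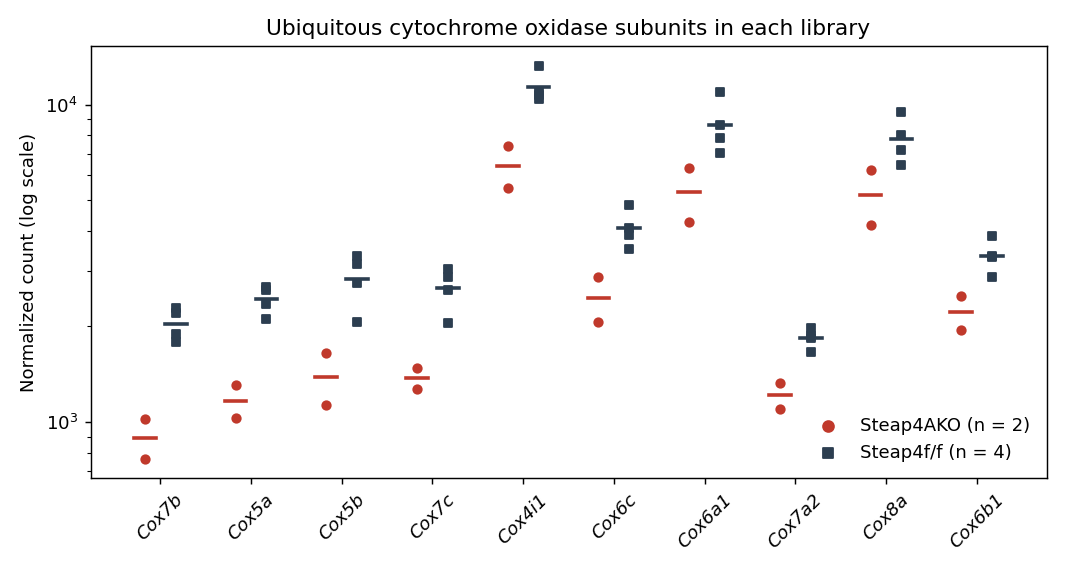
Normalized counts of the 10 ubiquitous subunits are shown for each library on a log axis, with Steap4AKO (n = 2) left of Steap4f/f (n = 4) and a line at each group mean. For every subunit both Steap4AKO points lie below the 4 Steap4f/f points, and the Steap4AKO points also lie apart from each other.

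The Steap4AKO libraries differed from each other over this class. All 10 subunits were lower in replicate 2 than in replicate 3, with medians of -1.02 and -0.56 on the log2 scale relative to the Steap4f/f mean, while the class medians of the 4 Steap4f/f libraries lay between -0.12 and 0.21. The coefficient of variation of each subunit among the Steap4f/f libraries was 7.06 to 19.9%. The 10 subunits together summed to 23188 and 32069 in Steap4AKO, against 54974, 42531, 47780 and 42489 in Steap4f/f. As a share of the adipocyte marker sum in the same library this was 7.75 and 7.39% in Steap4AKO, against 11.2, 9.73, 11.2 and 9.55% in Steap4f/f. Lep, the leptin gene, went the other way from most of these markers, at 55202 and 43433 in Steap4AKO, against 8106, 18214, 22141 and 17433 in Steap4f/f. Without Lep in the sum, a choice made after the values were seen, the shares were 9.5 and 8.21% in Steap4AKO, against 11.4, 10.2, 11.8 and 9.93% in Steap4f/f. Both Steap4AKO libraries were below all Steap4f/f libraries on either scale, by a narrow margin without Lep.

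Per kilobase of transcript, the order of the levels was similar in both genotypes. Cox8a, Cox6a1 and Cox4i1 were highest, at 9440, 9278 and 8385 normalized counts per kilobase in Steap4AKO, and at 14164, 15090 and 14825 in Steap4f/f. Their Steap4f/f libraries overlapped, so these neighbours could not be ranked. Cox7b was the lowest of the class in both genotypes, at 892.8 per kilobase in Steap4AKO and 2041 in Steap4f/f.

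The proximal promoters of 4 of these genes are shown because their genes carry the calls or the motifs described next. Each line is the 250 bases upstream of the RefSeq transcript start (GRCm38.p6), read 5′ to 3′ on the gene's strand, with motif matches in capitals. They lie at chrX:106015450-106015699 on the plus strand for Cox7b, chr9:57520982-57521231 on the plus strand for Cox5a, chr5:115348959-115349208 on the minus strand for Cox6a1 and chr7:140900447-140900696 on the minus strand for Cox8b.
Cox7b: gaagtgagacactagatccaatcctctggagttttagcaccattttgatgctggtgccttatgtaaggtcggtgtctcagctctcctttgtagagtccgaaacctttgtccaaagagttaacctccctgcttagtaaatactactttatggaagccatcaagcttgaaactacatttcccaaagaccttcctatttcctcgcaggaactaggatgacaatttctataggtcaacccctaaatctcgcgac
Cox5a: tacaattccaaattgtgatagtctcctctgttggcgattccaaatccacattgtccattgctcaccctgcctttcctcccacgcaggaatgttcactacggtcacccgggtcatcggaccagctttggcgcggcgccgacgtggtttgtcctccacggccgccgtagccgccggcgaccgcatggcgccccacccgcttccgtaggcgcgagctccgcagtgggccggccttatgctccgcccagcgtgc
Cox6a1: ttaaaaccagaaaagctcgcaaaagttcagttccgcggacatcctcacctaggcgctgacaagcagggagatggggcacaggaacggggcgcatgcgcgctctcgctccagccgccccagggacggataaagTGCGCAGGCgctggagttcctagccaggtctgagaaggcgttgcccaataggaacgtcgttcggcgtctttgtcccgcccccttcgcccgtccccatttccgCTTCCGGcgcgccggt
Cox8b: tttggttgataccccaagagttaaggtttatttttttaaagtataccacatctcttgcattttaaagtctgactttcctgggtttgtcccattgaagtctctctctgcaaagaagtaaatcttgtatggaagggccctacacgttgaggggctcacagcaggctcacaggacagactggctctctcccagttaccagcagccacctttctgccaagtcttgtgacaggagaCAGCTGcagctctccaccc

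Both called ubiquitous genes, Cox7b and Cox5a, held none of the letters searched in this window. In Cox6a1 the capitals mark a core of the NRF1 motif (TGCGCANGC), from -118 to -110, and a core of the ETS motif (CCGGAAG, on the other strand), at -16 to -10; NRF1 and the ETS factor GABPA are known regulators of respiratory chain genes. In Cox8b the capitals mark an E-box (CAGCTG), the motif of muscle regulatory factors, at -19 to -14. RefSeq promoters of 300 bases were matched for 30 members, 31 promoters in all, and both strands were searched. The 7 members without a matched promoter include Cox6a2, so only 2 promoters of the muscle, heart and brown-fat isoforms were searched. The ETS core was in 13 of the 31, against 15.8% of 13930 promoters of that length; it was in 3 of the 8 promoters of ubiquitous subunits (Cox6a1, Cox6b1 and Cox8a) and in 10 of the 19 of assembly and mRNA factors. The NRF1 core was in 2 of the 31 (7.63% of all), the YY1 core AAGATGGC in 2 (3.98%), the E-box in 2 (16%) and the MEF2 core CTAAAAATA in 0 (0.294%).

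The isoforms used in muscle, heart and brown fat had the largest differences of all members. Cox6a2, the heart and skeletal muscle form of Cox6a1, had 7.30 and 32.8 in Steap4AKO, against 348.9, 1415, 788.3 and 1788 in Steap4f/f. It fell 54.2-fold, a log2 difference of -5.77 (SE 0.74, limma, adjusted p = 0.0466). Without Steap4AKO replicate 2 it stood at -4.76 (limma, adjusted p = 0.199), and without Steap4f/f replicate 2, 5 or 6 its adjusted p was 0.177, 0.154 and 0.123 (limma). The call held without Steap4f/f replicate 1 (limma, adjusted p = 0.00971). Without Steap4AKO replicate 3, which leaves only replicate 2 in that group, the log2 difference was -6.78. Cox8b, the muscle and brown-fat form of Cox8a, had 64.6 and 361.0 in Steap4AKO, against 1380, 746.5, 1271 and 1131 in Steap4f/f, a log2 difference of -2.84 (SE 0.60, limma, adjusted p = 0.0784). The size of the Cox8b difference depended on the Steap4AKO library, at -1.61 without replicate 2 and -4.07 without replicate 3. Cox7a1, a form enriched in heart, muscle and brown fat, had 52.4 and 70.4 in Steap4AKO, against 116.6, 226.3, 332.0 and 389.0 in Steap4f/f, a log2 difference of -1.98 (SE 0.47, limma, adjusted p = 0.106). All 3 were lower in Steap4AKO without overlap between the genotypes, where 14.4% of all genes were, but only Cox6a2 passed the test. Exons of Cox6a2 share 70 bases with Itgad on the other strand.

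The summed muscle markers were lower in Steap4AKO, as these isoforms were, and the part of muscle and thermogenic markers in the result was not tested. Within Steap4f/f, replicate 1 had the highest Cox8b value, 1380, but the lowest muscle marker sum, 159201, and thermogenic marker sum, 2820. Cox6a2, over a 245-fold range between libraries, kept a nearly constant proportion to Ckm, the muscle creatine kinase, of 1.84 and 2.15% in Steap4AKO and 2.19, 2.1, 1.56 and 2.2% in Steap4f/f, while Ckm itself ranged 205-fold. Against another muscle gene, the troponin Tnnc2, its proportion varied more, at 2.98 and 8.07% in Steap4AKO and 8.12, 8.05, 5.64 and 11.3% in Steap4f/f. Cox7a1 did not keep such a proportion, at 13.2 and 4.61% of Ckm in Steap4AKO, against 0.733, 0.336, 0.658 and 0.478% in Steap4f/f. Cox8b ranged 21.4-fold, and its ratio to Cidea, a lipid droplet gene of thermogenic fat, ranged 3.13-fold, at 125 and 78.8% in Steap4AKO and 247, 179, 96.7 and 79.8% in Steap4f/f. The ratio to Cidea ranged 47.3-fold for Cox6a2 and 6.59-fold for Cox7a1. All of these ratios of normalized values were chosen after the values were seen. The 8 thermogenic adipocyte markers summed to 1762 and 3140 in Steap4AKO, against 2820, 3779, 6373 and 8401 in Steap4f/f, so the groups overlapped. With the muscle markers as a covariate, which correlated with genotype at -0.93, the log2 difference was -1.01 for Cox6a2, -0.61 for Cox8b, 0.18 for Cox7a1, -0.38 for Cox5a and -1.09 for Cox7b, with adjusted p-values of 0.643 to 0.972 (limma); muscle content and genotype cannot be told apart in that fit.

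**Figure D3:**
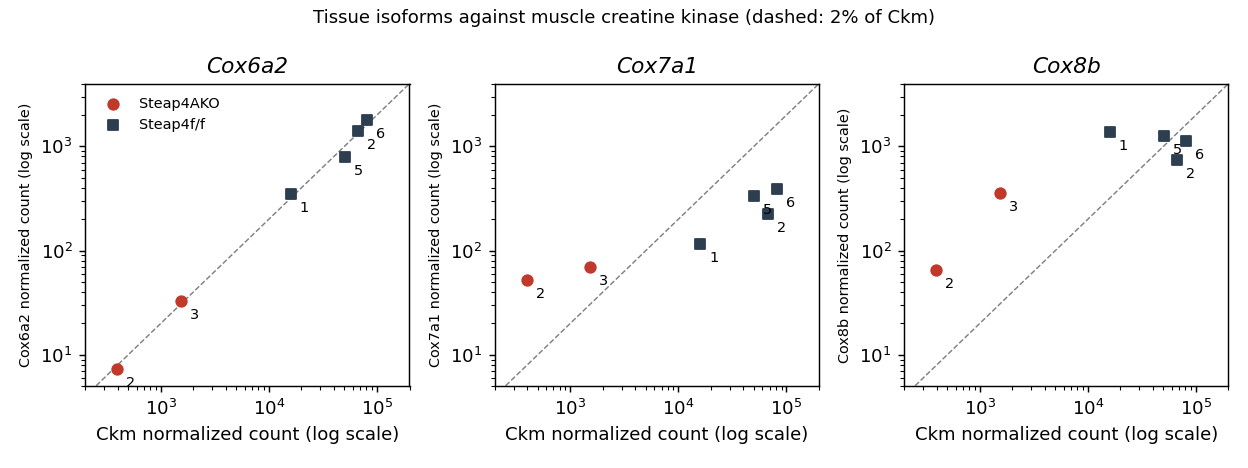
Normalized values of Cox6a2, Cox7a1 and Cox8b are plotted against Ckm in the 6 libraries, numbered by replicate, on log axes, with a dashed line at 2% of Ckm. Cox6a2 runs parallel to Ckm, at 1.56 to 2.2% of it, while the other isoforms span a narrower range than Ckm.

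Per kilobase, the share of each isoform within its pair was compared between genotypes. Cox6a2 made up 0.143 and 0.433% of the Cox6a2 and Cox6a1 pair in Steap4AKO, against 2.60, 14.5, 7.13 and 16% in Steap4f/f. Cox7a1 made up 7.38 and 8.18% of its pair with Cox7a2 in Steap4AKO, against 9.02, 18.6, 22.9 and 26.2% in Steap4f/f. Cox8b made up 2.32 and 8.14% of its pair with Cox8a in Steap4AKO, against 18.2, 13.7, 19.5 and 21.1% in Steap4f/f. In these 3 pairs the isoform was thus lower than its partner's own difference would give, by log2 ratios of -5.06, -1.38 and -2.24. The last of these, for Cox8b, was -1.3 without Steap4AKO replicate 2 and -3.18 without Steap4AKO replicate 3. Over 5 pairs, the exact two-sided permutation test gave p = 0.133 for each of these (adjusted p = 0.167), which is the smallest p that 15 assignments allow, so no pair could reach 0.05.

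**Figure D4:**
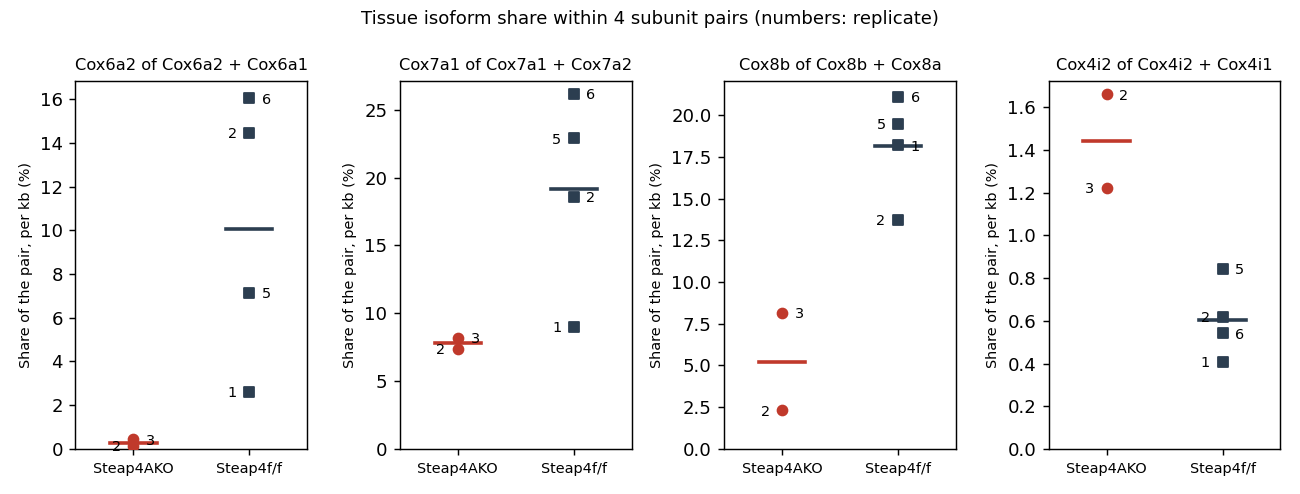
The share of each tissue isoform within its pair, in percent of normalized counts per kilobase, is shown for 4 pairs by library, numbered by replicate, with Steap4AKO left of Steap4f/f and a line at each group mean. The Cox6a2, Cox7a1 and Cox8b shares are lower in both Steap4AKO libraries, and the Cox4i2 share is higher.

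Neither isoform of other tissues passed the test. Cox4i2, the form of Cox4i1 known from lung and induced by low oxygen, had 88.1 and 87.7 in Steap4AKO, against 52.0, 63.8, 89.7 and 54.4 in Steap4f/f, a log2 difference of 0.46 (SE 0.35, limma, adjusted p = 0.508). The groups overlapped through Steap4f/f replicate 5. As a share of its pair with Cox4i1, Cox4i2 stood at 1.66 and 1.22% in Steap4AKO, against 0.407, 0.619, 0.844 and 0.543% in Steap4f/f, a log2 ratio of 1.296 (exact permutation test, p = 0.133, adjusted p = 0.167). Cox6b2, the testis form of Cox6b1, was low in all libraries, at 19.7 and 9.68 in Steap4AKO and 9.88, 12.2, 15.3 and 21.9 in Steap4f/f. Its share of the pair did not separate the genotypes (log2 ratio 0.56, exact permutation test, p = 0.533, adjusted p = 0.533).

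Cox7a2l, which joins complexes III and IV into supercomplexes, had 1667 and 1517 in Steap4AKO, against 1856, 1835, 1725 and 1701 in Steap4f/f. The libraries did not overlap, but the log2 difference was only -0.16 (SE 0.12, limma, adjusted p = 0.515).

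Copper delivery, the step that brings copper to the catalytic subunits, was taken as 8 genes, though a direct role is not established here for each. Of the 8, 0 passed the test (limma, adjusted p = 0.189 to 0.879). Only 1, Cox17, was at an unadjusted p under 0.05 (limma), where 9.66% of all genes were lower. All 8 means were lower in Steap4AKO, and the median log2 difference was -0.27. Cox17, the copper donor of the intermembrane space, had 428.4 and 460.3 in Steap4AKO, against 774.3, 582.6, 934.2 and 593.4 in Steap4f/f, a log2 difference of -0.67 (SE 0.22, limma, adjusted p = 0.189). Cmc1, whose yeast form binds copper, had 255.1 and 224.3 in Steap4AKO, against 332.8, 319.2, 297.3 and 289.6 in Steap4f/f. These were the 2 of the 8 members of the class whose genotypes did not overlap, where 14.4% of all genes were lower without overlap. Cox19, a partner of Cox11 in the intermembrane space, had 682 and 1044 in Steap4AKO, against 1488, 928.1, 1175 and 1152 in Steap4f/f. Cox11, which brings copper to the first catalytic subunit, had 118.8 and 145.1 in Steap4AKO, against 160.3, 170.9, 214.4 and 136.9 in Steap4f/f. Values of Cox19 and of Cox11 overlapped between the genotypes. Exons of Cox11 share 688 bases with Tom1l1 on the other strand.

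Sco1 and Sco2, the chaperones that load copper onto the second catalytic subunit, differed little. Sco1 had 196.2 and 213.1 in Steap4AKO, against 202, 216.2, 218.6 and 252.5 in Steap4f/f, a log2 difference of -0.12 (SE 0.20). Sco2 had 51.8 and 56.1 in Steap4AKO, against 101.3, 53.8, 37.7 and 65.8 in Steap4f/f, and its value is uncertain, since its exons share 829 bases with Ncaph2 on the other strand and 856 with Tymp on the same strand. Its log2 difference was -0.17, and that of the sum of Sco2 and Tymp was 0.31. Coa6, which works with the Sco proteins, had 218 and 238 in Steap4AKO, against 225.8, 332.5, 236.8 and 191.7 in Steap4f/f, and Cmc2 had 198.6 and 160.1 in Steap4AKO, against 173.9, 226.8, 217.8 and 191.1 in Steap4f/f. The genotypes overlapped for both genes. The summed values of the 8 genes were lower in Steap4AKO, at 2149 and 2541, against 3458, 2830, 3332 and 2873 in Steap4f/f. They came to 9.27 and 7.92% of the summed ubiquitous subunits in Steap4AKO, against 6.29, 6.65, 6.97 and 6.76% in Steap4f/f. This proportion was higher in both Steap4AKO libraries because the subunit sum was lower by more.

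The 3 genes of heme A synthesis and handling overlapped between the genotypes. Cox10, which makes heme O, had 282.3 and 305.1 in Steap4AKO, against 284.4, 370.3, 477.4 and 399.4 in Steap4f/f, a log2 difference of -0.36 (limma, adjusted p = 0.443). Cox15, which turns heme O into heme A, had 718.4 and 913.7 in Steap4AKO, against 927.3, 814.3, 942.4 and 699.9 in Steap4f/f. Surf1, mutated in human Leigh syndrome, had 629.8 and 694.3 in Steap4AKO, against 717.3, 660.3, 737.5 and 655.9 in Steap4f/f. Cox15 and Surf1 had log2 differences of -0.05 and -0.07, and turned to 0.09 and 0.07 when values are scaled to non-mitochondrial genes.

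Among the 8 other assembly factors, 5 were lower in Steap4AKO without overlap between the genotypes, where 14.4% of all genes were. Of the 8, 0 passed the test. At an unadjusted p under 0.05 (limma), 3 were lower, where 9.66% of all genes were. Cox14, which binds the newly made first catalytic subunit, had 434.8 and 553.8 in Steap4AKO, against 1056, 889, 966.3 and 1017 in Steap4f/f. It was 1.99-fold lower, a log2 difference of -0.996 (SE 0.16, limma, adjusted p = 0.0527), the largest among the assembly factors and within the range of the ubiquitous subunits. Coa3, its partner in the same early complex, had a log2 difference of -0.37 (SE 0.15, limma, adjusted p = 0.239). Cox20, a chaperone of the second catalytic subunit, had 269.7 and 235 in Steap4AKO, against 390.2, 392.4, 327.5 and 389.4 in Steap4f/f, a log2 difference of -0.57 (limma, adjusted p = 0.180). Its exons share 804 bases with Hnrnpu on the other strand, and without knowledge of strand their reads cannot be told apart. Coa5 and Cox16 were also without overlap, at log2 differences of -0.22 and -0.25, and Cox16 has a readthrough gene in the table that shares its exons. Coa7 had 190.1 and 270.7 in Steap4AKO, against 124.1, 239.4, 322.2 and 254.4 in Steap4f/f. Cox18, which inserts the second catalytic subunit into the membrane, had 208.8 and 254.6 in Steap4AKO, against 230.5, 221, 247.3 and 275.8 in Steap4f/f, and Pet100 had a log2 difference of -0.37 (SE 0.42).

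For both factors that act on mitochondrial mRNA the genotypes overlapped. Lrpprc, which stabilises these mRNAs, had 953.5 and 878.9 in Steap4AKO, against 958.2, 948, 1111 and 1394 in Steap4f/f, a log2 difference of -0.25 (limma, adjusted p = 0.504). Taco1, an activator of translation of the first catalytic subunit, had 177.1 and 247.6 in Steap4AKO, against 138.2, 233.1, 284.9 and 277.7 in Steap4f/f.

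Of the other genes of the pathway, 24 of 25 listed were in the table, and Coa1 was not analysed here. Of these, 22 were lower in Steap4AKO by their mean on the log2 scale, where 47.8% of all genes tested were. For 10, both Steap4AKO libraries lay below all Steap4f/f libraries, where 14.4% of all genes did. The median log2 difference was -0.45. At an adjusted p under 0.05 (limma), 2 fell, where 0.433% of all genes were called lower, and 0 rose. Cycs, cytochrome c itself, had 2779 and 2805 in Steap4AKO, against 6012, 5847, 4878 and 5677 in Steap4f/f, a log2 difference of -1.0 (SE 0.14, limma, adjusted p = 0.0466). The mitochondrial gene mt-Co2, the second catalytic subunit, had 4929 and 4807 in Steap4AKO, against 18294, 13560, 16512 and 12820 in Steap4f/f, a log2 difference of -1.64 (SE 0.18, limma, adjusted p = 0.0466); nuclear copies of mitochondrial genes make its value uncertain. The other catalytic subunits did not pass the test. The gene mt-Co1 had 269870 and 386879 in Steap4AKO, against 670434, 553682, 453121 and 736242 in Steap4f/f, a log2 difference of -0.88 (SE 0.55, limma, adjusted p = 0.430). The gene mt-Co3 had 8621 and 8603 in Steap4AKO, against 14219, 6428, 8782 and 9193 in Steap4f/f, a log2 difference of -0.11 (SE 0.28, limma, adjusted p = 0.864), and its genotypes overlapped. Fdx1, a ferredoxin that serves heme A synthesis, had 238.1 and 392.4 in Steap4AKO, against 920.5, 532.0, 593.9 and 789.1 in Steap4f/f, a log2 difference of -1.18 (limma, adjusted p = 0.110). Mss51, a muscle gene, had 7.86 and 5.97 in Steap4AKO, against 19.0, 219.9, 39.1 and 1749 in Steap4f/f, a log2 difference of -4.08 (limma, adjusted p = 0.238).

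Short transcripts as a whole were lower in Steap4AKO, and the part of transcript length in these results was not tested. Other protein-coding genes had a median log2 difference of -0.31 at up to 600 bases, -0.26 from 600 to 1000, -0.13 from 1000 to 2000, 0.04 from 2000 to 4000 and 0.16 above 4000 bases. Without genes named for mitochondrial complexes, mitochondrial import and ribosomes, the median was -0.22 at up to 600 bases and -0.21 from 600 to 1000. The ubiquitous subunits have transcripts of 540 to 1001 bases, and 649 other genes of that length had a median of -0.26, against -0.78 for the subunits. For the copper delivery genes the medians were -0.27 for the class and -0.04 for 8350 other genes of the same length range. That range is wide, at 747 to 3690 bases. The median transcript of the class is 1354 bases, within the bin from 1000 to 2000 whose median was -0.13.

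**Figure D5:**
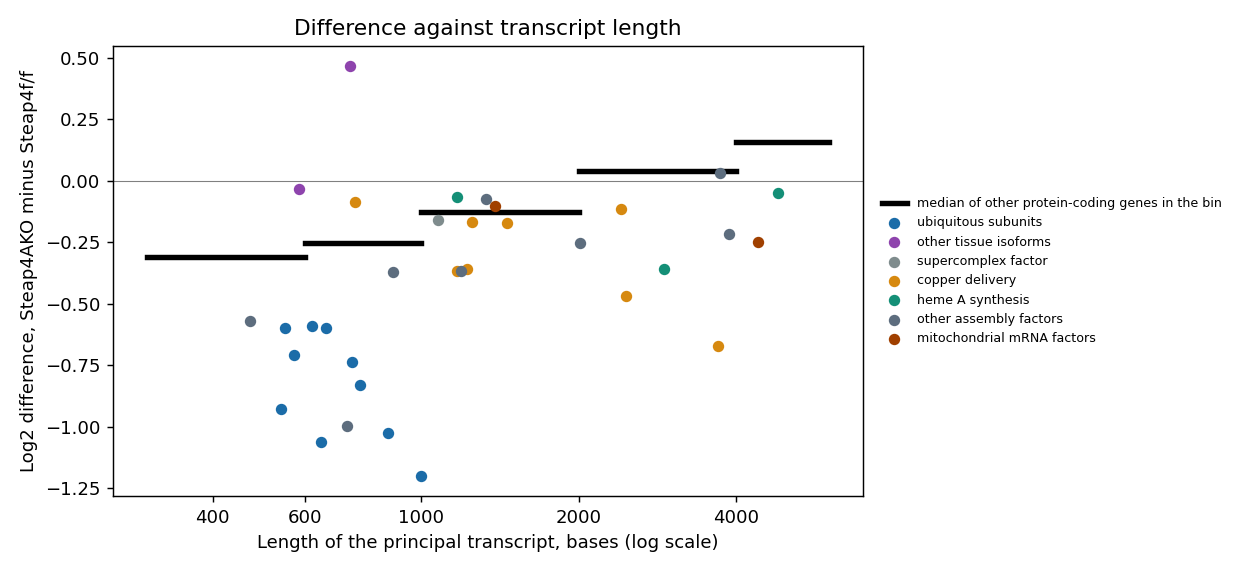
The log2 difference, Steap4AKO minus Steap4f/f, of each member outside the muscle, heart and brown-fat class is plotted against transcript length on a log axis, with black bars for the median of other protein-coding genes in each length bin. The bars run from -0.31 at up to 600 bases to 0.16 above 4000 bases, and all 10 ubiquitous subunits lie below their bar.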

How the data were processed

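RNA from iWAT was sequenced in 2 Steap4AKO and 4 Steap4f/f libraries. The unit of the deposited table is a signal: its name says that the authors normalized gene counts with DESeq2. The builds GRCm38 and mm10 are listed in the submitters' processing notes, as are DESeq2 1.12.4, R 4.2.0, RSEM 1.3.3 and STAR 2.7.0e, with no role or order. The annotation and the strandedness are not given in the sources used here. Only 51.5 to 60.1% of low values came within 0.1 of a whole read. Whole reads could thus not be recovered. In Steap4AKO replicate 2 the value of 1 read was 0.716, where low values matched whole steps with a mean cosine of 0.51; at 1.432, which would give 11600000 reads in place of 23100000, it was -0.03. Depth is an estimate and a count test was not used. RSEM can divide reads between near-identical genes.

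Symbols and coordinates came from GENCODE M21 (GRCm38), and promoter sequences from RefSeq (GRCm38.p6). The test was limma 3.58.1 (R 4.3.3) applied to log2(value + 1), with a variance trend, two-sided, for 15006 genes with a mean of at least 10 and Benjamini-Hochberg adjustment over all of them. This scale understates changes of low genes; folds divide the group means of deposited values. Isoform ratios were tested by exact permutation of libraries. Members and lists were chosen with earlier results of these data known. Values per library are given for called members, isoform pairs, copper genes and the largest differences of each class. The fit was checked on simulated data with 200 changed genes and the spread of Steap4f/f. It recovered 36% of 2-fold and 80.4% of 4-fold changes, with a mean of 6.2 false calls. Differences near 2-fold that did not pass the test may thus have been missed. Alternatives were other pseudocounts, filters, scalings, variance settings, thresholds, a muscle covariate and each library left out. By sequence, 9 members have a near-identical match to another gene in the annotation. For 2 of them (Cox16 and Sco2) matching genes are in the table, and these overlap the member at its own locus. Exon bases are shared with another gene in the table by 11 members, 10 of them with a gene on the opposite strand.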

Additional observations from a re-analysis of the deposited data

Results flagged for a closer look

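Cox20 in Steap4f/f replicate 5 stood at 327.5 normalized counts, below the other 3 Steap4f/f libraries, which lay between 389.4 and 392.4. The gap was 0.953 of the range of the group, above Dixon's critical value for 4 samples. Chance flags about 1 in 20 groups, and 42 groups were examined. Both Steap4AKO libraries, at 269.7 and 235, lay below this library too.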

How the results depend on the processing

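Of 591 values of single members under other settings, 562 kept their direction and 29, from 12 members, reversed. The counts of calls depended on the settings, and the cause was not tested for each. Among called genes the lowest adjusted p was 1.86e-05, the second lowest 0.0466 and the highest 0.0492 (limma), so most calls lay just under the threshold. Cox5a, Cox7b and Cox6a2 shared an adjusted p of 0.0466, and at a pseudocount of 0.5 they shared 0.0503 (limma). Their log2 differences were nearly the same in both settings. Against 71 genes and 3 members called lower, a pseudocount of 0.5, a filter at a mean of 50 and a robust variance prior each gave 1 gene and 0 members, the muscle covariate 1 and 0, and array weights 119 genes; scaling to non-mitochondrial genes gave 1 member, and an adjusted p under 0.1 gave 410 genes and 8 members. Leaving out 1 library gave 1 to 821 genes and 0 to 7 members, the highest without Steap4AKO replicate 3; without Steap4f/f replicate 1, 238 genes and 4 members were called. The count of members without overlap, 21 of 37 with 14.4% of all genes, was 16 with 9.05% under scaling to non-mitochondrial genes. Leaving out a library can only keep or raise this count, which then was 21 to 27 with 16.7 to 28.6% of all genes; other settings were not run for it.

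Medians of classes moved as follows when 1 library was left out: ubiquitous subunits -1.02 to -0.56, muscle, heart and brown-fat isoforms -4.07 to -1.77, Cox7a2l -0.23 to -0.093, copper delivery -0.32 to -0.19, and heme A synthesis -0.23 to 0.005. With the muscle covariate they were -0.63 for ubiquitous subunits, -0.61 for the muscle, heart and brown-fat isoforms, -0.42 for Cox7a2l, -0.22 for other assembly factors and 0.75 for mRNA factors. Scaling to non-mitochondrial genes moved the median of all genes by 0.14 and gave -0.023 for Cox7a2l, -0.13 for copper delivery, 0.072 for heme A synthesis and -0.17 for other assembly factors; quantile normalization gave -0.35 for copper delivery.

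Among reversed members, the muscle covariate gave Cox7a1 0.18, Coa6 0.13, Sco1 0.28, Cox10 0.32, Cox16 0.25, Cox18 0.41 and Taco1 1.51. Non-mitochondrial scaling gave Cox6b2 0.096, Coa6 0.052, Sco1 0.022, Cox15 0.085, Surf1 0.072, Cox18 0.063 and Taco1 0.035. Array weights gave Sco2 0.008 and Coa7 -0.12, and quantile normalization gave Coa7 -0.015. With 1 library left out, Cox6b2 lay between -0.51 and 0.45, Coa6 -0.20 and 0.068, Sco2 -0.39 and 0.074, Cox15 -0.23 and 0.12, Surf1 -0.14 and 0.005, Coa7 -0.25 and 0.28, Cox18 -0.22 and 0.068, Taco1 -0.34 and 0.14, and the log2 ratio of Cox6b2 to Cox6b1 -0.10 and 1.22. Where Steap4AKO keeps 1 library, that library is assumed to vary like Steap4f/f. No paired analysis was possible because the genotypes share only replicate number 2.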
